A study of Homo sapiens with 28 samples.

Results

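The genes described here are 8 histone genes of human chromosome 6: the linker histone genes HIST1H1C, HIST1H1E, HIST1H1D and HIST1H1B, and the core histone genes HIST1H4C, HIST1H2BK, HIST1H2AC and HIST1H2BD. They were chosen by gene identifier, with earlier results of these data known, and all 8 were present among the 24678 genes with at least 1 exonic read. Of these, 7 passed the filter on low counts. HIST1H1B did not, with 7 exonic reads over all libraries.

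The reads came from nucleotide-recoding RNA sequencing of total RNA from wild-type HEK293T cells, a cell line long grown from human embryonic kidney. Cells were given 100 µM 4-thiouridine (s4U) for 2 h or left without it, and T-to-C mismatches mark RNA that took up s4U, that is, RNA made during the labelling period. The RNA was converted by 1 of 3 chemistries, NaIO4 and TFEA at pH 5.2, iodoacetamide, or OsO4 and NH3, after the handling the labels call drop out (DO) or the one they call improved (IH). The design text compares common handling with loss-minimising handling. Which steps differed between them is not given in the sources used here. Each of the 3 chemistries had 2 labelled libraries and 1 unlabelled library under each handling, which gave 12 labelled and 6 unlabelled libraries in 12 groups. The labels do not say whether replicates came from separate cultures, so p-values measure the spread between these libraries, which may be technical.

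Core histones form the protein spool of the nucleosome, with H2A, H2B, H3 and H4 each present in pairs, and linker histone H1 binds where DNA enters and leaves it. Most of the messages of these clustered genes are made in S phase, when new chromatin needs histones, and are removed when DNA synthesis stops. Unlike other messages, they usually end in a stem-loop bound by SLBP and carry no poly(A) tail, so that total-RNA libraries such as these can hold them.

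On build GRCh38.p14 of RefSeq, the 8 genes lie between positions 26055740 and 27867588 of chromosome 6, a stretch of 1.81 megabases. The linker genes are HIST1H1C (now H1-2, ENSG00000187837, chr6:26055740-26056470), HIST1H1E (H1-4, ENSG00000168298, chr6:26156329-26157115), HIST1H1D (H1-3, ENSG00000124575, chr6:26234212-26234987) and HIST1H1B (H1-5, ENSG00000184357, chr6:27866792-27867588). The core genes are HIST1H4C (H4C3, ENSG00000197061, chr6:26103933-26104337), HIST1H2AC (H2AC6, ENSG00000180573, chr6:26124172-26124690), HIST1H2BK (H2BC12, ENSG00000197903, chr6:27138293-27146858) and HIST1H2BD (H2BC5, ENSG00000158373, chr6:26158121-26171349). RefSeq gives each of 6 genes a single transcript over 405 to 797 bases. HIST1H2BK and HIST1H2BD have 3 transcripts each, over 8566 and 13229 bases, and their spans overlap other RefSeq genes: H4C9 in HIST1H2BK, and H2BC6-AS1 and LARP1P1 in HIST1H2BD. Histone genes resemble each other closely, and how reads that fit more than 1 gene were counted is not given in the sources used here, so a read total of 1 gene may hold reads of another.

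The sequences before the start sites are shown to set linker genes beside core genes. Their part in the read levels was not tested. RefSeq's promoter table held 7 of the 8 genes, all but HIST1H4C. The 150 bases before the annotated start are printed 5′ to 3′ on the gene's own strand, with capitals at matches, on either strand, of 4 motifs. AAACACA is the H1 box known from the promoters of linker histone genes. The CCAAT box was searched by those letters. The TATA box was searched as TATANA. ATTTGCAT is the octamer that the factor OCT1 binds. TATANA matches on both strands can overlap each other. The linker genes, on the minus strand except HIST1H1E, are from chr6:26056471-26056620, chr6:26156179-26156328, chr6:26234988-26235137 and chr6:27867589-27867738 in the order printed:
HIST1H1C: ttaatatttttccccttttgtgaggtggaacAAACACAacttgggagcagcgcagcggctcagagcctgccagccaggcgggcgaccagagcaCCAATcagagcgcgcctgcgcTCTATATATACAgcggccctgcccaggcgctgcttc
HIST1H1E: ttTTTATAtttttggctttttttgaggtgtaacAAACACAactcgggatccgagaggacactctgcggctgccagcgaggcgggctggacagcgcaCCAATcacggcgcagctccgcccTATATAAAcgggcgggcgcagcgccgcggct
HIST1H1D: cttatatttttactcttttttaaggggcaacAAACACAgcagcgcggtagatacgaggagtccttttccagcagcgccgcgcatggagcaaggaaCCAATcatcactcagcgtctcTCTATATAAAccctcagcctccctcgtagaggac
HIST1H1B: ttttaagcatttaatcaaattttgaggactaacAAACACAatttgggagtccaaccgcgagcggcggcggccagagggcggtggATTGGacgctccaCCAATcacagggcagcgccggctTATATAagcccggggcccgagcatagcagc
The core genes, on the plus strand except HIST1H2BK, are from chr6:27146859-27147008, chr6:26124022-26124171 and chr6:26157971-26158120 in the order printed:
HIST1H2BK: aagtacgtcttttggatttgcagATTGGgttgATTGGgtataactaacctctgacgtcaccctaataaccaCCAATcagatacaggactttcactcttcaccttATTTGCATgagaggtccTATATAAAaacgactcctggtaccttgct
HIST1H2AC: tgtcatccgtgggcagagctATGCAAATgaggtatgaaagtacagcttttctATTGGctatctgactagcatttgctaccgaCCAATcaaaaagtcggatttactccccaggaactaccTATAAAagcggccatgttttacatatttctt
HIST1H2BD: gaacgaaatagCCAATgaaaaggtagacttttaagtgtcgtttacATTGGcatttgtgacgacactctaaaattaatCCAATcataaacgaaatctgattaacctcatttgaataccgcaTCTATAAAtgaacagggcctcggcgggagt

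AAACACA stood in all 4 linker promoters, starting 117 or 119 bases before the start, and in none of the 3 core promoters shown. Over the 27305 promoters of the same length in the table, 2.77% held it. CCAAT and TATANA were in 7 of 7, against 24.4% and 11.5% of the table. ATTTGCAT was in 2, HIST1H2BK and HIST1H2AC, against 0.985%. HIST1H1B, with almost no reads, had the same 3 motifs as the other linker genes. These matches describe letters only.

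Depth ran from 1935777 to 9962345 aligned reads per library with HISAT-3N, an aligner that allows for conversion, of which 836654 to 4604325 were exonic reads of a named gene. Reads naming no gene made up 32.7% to 41.5% of the DO libraries and 17.5% to 25.7% of the IH libraries, so this share moved with handling, and its part in the results below was not tested. Levels are CPM, counts scaled to library size, with TMM factors that even out composition between libraries. In bulk RNA, fewer cells making a message and less message per cell cannot be told apart. Whether a difference between handlings lies in the cells at all, or arises in the handling, was not tested.

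Per length, the linker genes HIST1H1E and HIST1H1C were the highest of the 6 genes with a single transcript. In RPKM, read counts scaled to the library's exonic gene reads and to the RefSeq span in kilobases, HIST1H1E had a mean of 10497 ± 2656 (SD, n = 6) and HIST1H1C of 10076 ± 1144 in the labelled DO libraries, and the former was higher in 3 of 6, so the pair could not be ordered. In the labelled IH libraries their levels were 2779 ± 316 and 2420 ± 220 on the same scale, with HIST1H1E higher in 6 of 6. HIST1H4C, which encodes H4, followed at 2188 ± 341 under DO and 733 ± 116 under IH. HIST1H2AC, which encodes an H2A, came next at 1416 ± 101 and 424 ± 63.7, and HIST1H1D at 239 ± 24.9 and 61.9 ± 7.56. Below the leading pair, the ranges of neighbours in this order did not overlap under either handling.

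HIST1H1B was almost without reads. Labelled DO libraries held 6 of its exonic reads, 5 of them in iodoacetamide replicate 2 and 1 in iodoacetamide replicate 1, and the unlabelled NaIO4 and TFEA library under DO held 1. The 9 IH libraries held 0. In the labelled IH libraries, 0 of 9290850 exonic gene reads allows a level of up to 0.323 RPM, reads scaled to the exonic gene total as in CPM (3 counts, counting error only), where the labelled DO libraries together had 0.741 RPM. Without iodoacetamide replicate 2 the DO level was 0.186 RPM, under that limit, so the handlings could not be ordered. With STAR, a second aligner, the same groups held 5, 1 and 0 reads. The gene did not enter the main test, and the fit without the filter on low counts did not call it.

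The question of how the reads of each gene differed between handlings came first. All 7 genes past the filter fell under IH, linker and core genes alike, where 33.9% of all 12449 genes tested were lower (edgeR adjusted p under 0.05), and every labelled IH library lay below every labelled DO library for each of them, as for 25.3% of all genes (34.7% had every IH library above). Together the 8 genes took 2.09% ± 0.333 of exonic gene reads in the labelled DO libraries (SD, n = 6, range 1.76% to 2.67%) and 0.533% ± 0.0368 in the labelled IH libraries (range 0.494% to 0.601%), a ratio of 3.92. HIST1H1C and HIST1H1E made up 72.0% to 77.4% of these reads under DO and 71.6% to 78.0% under IH.

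HIST1H1C, which encodes linker histone H1.2, ranged from 7433 to 11581 CPM in the 6 labelled DO libraries, with a median of 8810. Under IH it ranged from 1317 to 1771 CPM, with a median of 1419. The lowest DO library was thus well above the highest IH library. The log2 fold change was -2.62 (SE 0.11, 95% interval -2.84 to -2.40), a 6.15-fold lower level (quasi-likelihood test of edgeR, Benjamini-Hochberg adjusted p = 2.02e-14 over 12449 genes). With exonic and intronic reads of all genes counted and scaled together it was -3.32. Only 2.08% (DO) and 1.31% (IH) of this gene's reads in labelled libraries were marked intronic. Over the 7 genes the log2 fold changes were then -3.35 to -2.86, where the median gene had 0.59. The size of the fall thus depends on the scaling. As a share of exonic gene reads, the 8 genes together were 3.92 times as high under DO.

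HIST1H1E, which encodes H1.4, ranged from 7389 to 16097 CPM under DO (median 9524) and from 1633 to 2245 under IH (median 1708). Iodoacetamide replicate 2 was the highest DO library, and it also had the highest percent of this gene's reads marked intronic (11.6%). The part of that in its level was not tested. The log2 fold change was -2.48 (SE 0.14, edgeR adjusted p = 9.13e-13). HIST1H1D, which encodes H1.3, had the fewest reads of the tested genes, at 209 to 263 CPM under DO (median 224) and 34.0 to 46.5 under IH (median 38.9). Its log2 fold change was -2.50 (SE 0.14, edgeR adjusted p = 1.23e-12), and its groups were also apart.

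Of the core genes, HIST1H2BK, an H2B gene, had the most reads, at 2459 to 4388 CPM under DO (median 2943) and 428 to 538 under IH (median 487). Its log2 fold change of -2.66 (SE 0.12, edgeR adjusted p = 4.43e-14) was the lowest of the 7. HIST1H2BD, also an H2B gene, ranged from 912 to 1594 CPM under DO (median 1167) and from 159 to 231 under IH (median 181), with a log2 fold change of -2.63 (SE 0.14, edgeR adjusted p = 3.61e-13). As for the other members, DO and IH libraries did not overlap for either H2B gene.

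HIST1H2AC ranged from 779 to 1027 CPM under DO (median 888) and from 155 to 221 under IH (median 182). Its log2 fold change was -2.30 (SE 0.11, edgeR adjusted p = 1.67e-13). HIST1H4C ranged from 796 to 1344 CPM under DO (median 1073) and from 198 to 291 under IH (median 262), and its -2.13 (SE 0.11, edgeR adjusted p = 3.86e-13) was the smallest fall of the 7. The gap between handlings held for both genes in every library.

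**Figure D1:**
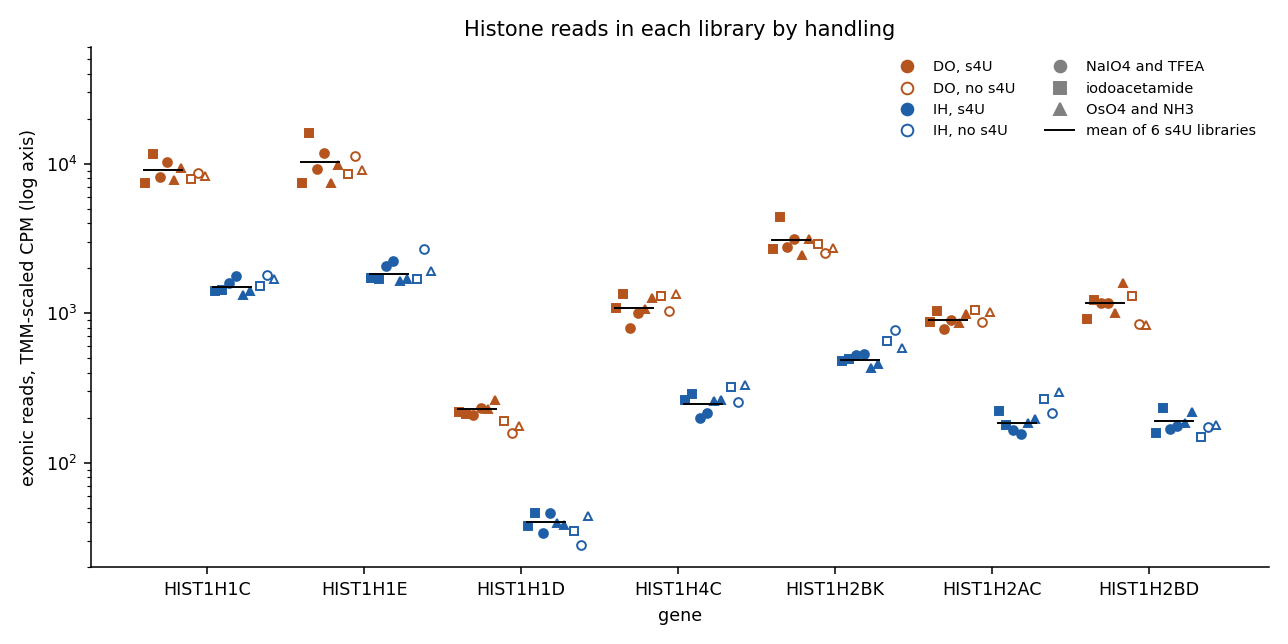
Exonic reads of 7 histone genes in each of the 18 libraries, as TMM-scaled CPM on a log axis, by gene. Colour gives the handling, filled points labelled libraries, open points unlabelled ones, shape the chemistry and bars the mean of the 6 labelled libraries; for each gene all IH points sit below all DO points.

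Of all 12449 genes tested, 33.9% were lower, 46.7% higher and 80.6% changed in either direction under IH at an adjusted p under 0.05, and the median gene's log2 fold change was 0.44. Relative to the median gene the members were lower by 2.57 to 3.10 on the log2 scale, since their differences from it were -2.57 for HIST1H4C and -3.10 for HIST1H2BK. Between 1.01% and 4.25% of the genes tested had a lower fold change than a given member. The median fold change over the 7 was -2.50.

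The fall was present in each chemistry. For HIST1H1C the log2 fold changes in the fit were -2.45 (SE 0.19) for NaIO4 and TFEA, -2.75 (SE 0.19) for iodoacetamide and -2.66 (SE 0.19) for OsO4 and NH3. Over the 7 genes and 3 chemistries they lay between -2.87, for HIST1H2BK with iodoacetamide, and -2.12, for HIST1H4C with NaIO4 and TFEA.

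The unlabelled libraries gave the same comparison without s4U. All 7 genes fell there too, against 30.7% of all genes lower and 72.1% changed in either direction, and the 8 genes together took 2.01% to 2.19% of exonic gene reads in the 3 DO libraries and 0.552% to 0.678% in the 3 IH libraries. HIST1H1C had 8651, 7910 and 8215 CPM in the unlabelled DO libraries for NaIO4 and TFEA, iodoacetamide, and OsO4 and NH3, and 1792, 1511 and 1696 in the IH libraries. Its log2 fold change was -2.31 (SE 0.15, edgeR adjusted p = 1.31e-10). The 7 log2 fold changes ran from -2.55 for HIST1H2BD (SE 0.19) to -1.93 for HIST1H2AC (SE 0.16), where the median gene had 0.43. Each unlabelled group is 1 library, so the spread in this test comes from the labelled groups.

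The next comparison asked whether labelled libraries held fewer reads of these genes than unlabelled ones. No gene of the 7 passed under DO, where 0.217% of all genes did, or under IH, where 0.225% did (0.177% higher and 0.0482% lower, edgeR adjusted p under 0.05), and DESeq2 also called none of the 7. At an unadjusted p under 0.05 there was 1 of 7 under DO and there were 3 of 7 under IH, as there were 1352 and 918 of the 12449 genes. Under DO that was HIST1H1D, with a log2 difference of 0.38 (SE 0.16, edgeR adjusted p = 0.390). The 3 under IH were HIST1H2AC at -0.49 (SE 0.13, edgeR adjusted p = 0.205), HIST1H2BK at -0.45 (SE 0.13, edgeR adjusted p = 0.293) and HIST1H4C at -0.28 (SE 0.13, edgeR adjusted p = 0.663).

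HIST1H2BK had 588 to 768 CPM in the 3 unlabelled IH libraries and 428 to 538 in the 6 labelled ones, so these groups did not overlap, as for 5.82% of all genes in this direction. HIST1H2AC had 215.5 to 296 and 155 to 221 CPM, with an overlap. The difference between the label contrasts of the handlings was itself tested: 0 of 7 genes and 0 of 12449 genes passed in edgeR, with 1 of 7 and 914 at an unadjusted p under 0.05, and DESeq2 called 3 genes, none of them among the 7. The difference was most negative for HIST1H2BK, at -0.64 (SE 0.19, edgeR adjusted p = 0.526).

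Calls of the members in these label contrasts changed when either of 2 libraries was left out. Without iodoacetamide DO replicate 1, HIST1H1C (0.35), HIST1H1E (0.36) and HIST1H2BK (0.40) passed as higher with s4U under DO, HIST1H2BK (-0.40) passed as lower under IH, and its difference between handlings (-0.80) passed as well, and the number of all genes called went from 27 to 208 under DO, from 28 to 57 under IH and from 0 to 17 for the difference. Without iodoacetamide DO replicate 2, HIST1H2BK (-0.40) again passed under IH, where 57 genes did. Without the unlabelled iodoacetamide DO library, 9 of all genes passed under DO.

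The converted share, the percent of a gene's exonic reads that carry 1 or more T-to-C mismatches, was then compared between handlings in the labelled libraries. HIST1H1C and HIST1H2BD passed as higher under IH, HIST1H1E, HIST1H4C, HIST1H2BK and HIST1H2AC did not pass, and HIST1H1D had too few reads for the test. Among the 1992 genes for which every labelled library held 50 or more exonic reads, 81.9% were called higher and 0 lower, and 2 of 6 members is read against that share. Under DO, replicate 1 had a higher share than replicate 2 in each of the 3 chemistries, for these 6 genes and for the median gene (11.3% and 8.27% for NaIO4 and TFEA, 12.3% and 8.91% for iodoacetamide, 13.04% and 9.35% for OsO4 and NH3). Under IH the median gene also had a higher share in replicate 1 (20.8% and 19.1%, 21.1% and 20.7%, 25.6% and 21.8% in that order). The histone genes pooled did so as well, except with iodoacetamide (19.3% and 19.7%). Libraries of 1 number may therefore not be independent across chemistries under either handling. Every p-value for handling treats them as independent and may be too small.

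In the unlabelled libraries the background of this measure, the percent of reads with a mismatch without any s4U, was 0% to 4.70% for 6 of the genes. Both ends of that range were HIST1H1D under IH, with 303 exonic reads over the unlabelled IH libraries. HIST1H2BD had 4.35% to 8.29%, which overlaps the top of that range. Its highest value was in the OsO4 and NH3 library under IH (33 of 398 reads, 95% Wilson interval 5.96% to 11.4%, counting error only).

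HIST1H1C had a converted share of 14.1% to 19.1% in the 6 labelled DO libraries, with a median of 17.1%. Under IH it had 18.5% to 22.5%, with a median of 19.7%, and 4 of 6 IH libraries lay above every DO library. The means were 16.8% ± 1.74 and 20.2% ± 1.77 (SD, n = 6). The log2 odds ratio was 0.33 (SE 0.15, 95% interval 0.04 to 0.63, edgeR adjusted p = 0.0348), against 1.09 for the median gene.

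HIST1H2BD had 21.6% to 37.6% under DO (median 28.2%) and 26.0% to 41.7% under IH (median 35.4%), so that the groups overlapped. Its log2 odds ratio was 0.48 (SE 0.20, 95% interval 0.08 to 0.88, edgeR adjusted p = 0.0248). Both calls were close to the threshold. With at least 2 mismatches asked of a converted read, neither passed, where 80.4% of the 1992 genes were called higher. HIST1H1C failed the test in 9 of 12 fits that left out 1 library and HIST1H2BD in 6 of 12. Both failed without replicate 2 of iodoacetamide under DO or under IH, replicate 2 of NaIO4 and TFEA or of OsO4 and NH3 under DO, or replicate 1 of either of those under IH, and HIST1H1C alone failed without iodoacetamide IH replicate 1 or without replicate 2 of NaIO4 and TFEA or of OsO4 and NH3 under IH.

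The shares of the other 4 genes overlapped between handlings. HIST1H1E had 15.1% to 22.7% under DO (median 17.7%) and 16.3% to 23.7% under IH (median 18.8%), with a log2 odds ratio of 0.10 (95% interval -0.20 to 0.40, edgeR adjusted p = 0.513). HIST1H4C had 14.4% to 26.0% and 16.5% to 29.2%, with a log2 odds ratio of 0.12 (-0.28 to 0.51, edgeR adjusted p = 0.571). The upper ends of both intervals lie below the value of the median gene, as do those of all 6 genes in this test. HIST1H2AC had 16.2% to 27.7% and 20.9% to 31.2%, with a log2 odds ratio of 0.19 (-0.21 to 0.59, edgeR adjusted p = 0.372). HIST1H2BK, the gene with the lowest shares, had 9.63% to 17.4% and 13.4% to 18.7%, with a log2 odds ratio of 0.21 (-0.15 to 0.58, edgeR adjusted p = 0.274). With 1 library left out the log2 odds ratio ranged from 0.03 to 0.18 for HIST1H1E, 0.07 to 0.32 for HIST1H2AC and 0.05 to 0.38 for HIST1H2BK. HIST1H2BK alone of these 4 passed, as higher, in the fit without NaIO4 and TFEA DO replicate 1 (0.38, edgeR adjusted p = 0.0471).

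**Figure D2:**
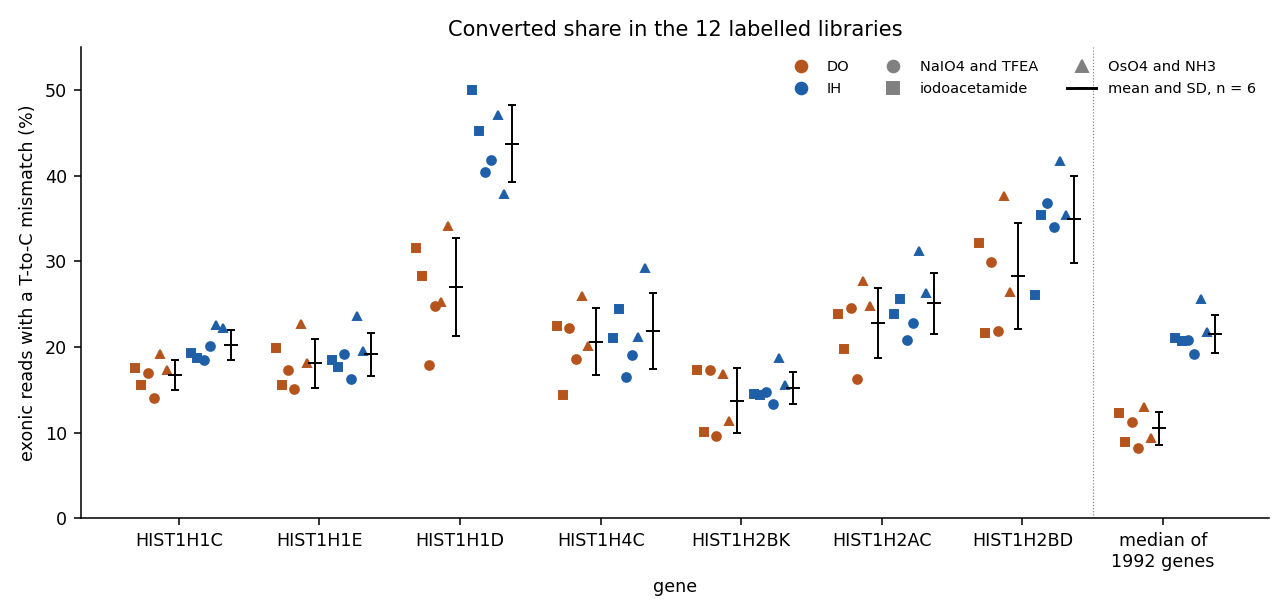
Percent of exonic reads that carry 1 or more T-to-C mismatches, in each of the 12 labelled libraries, for 7 histone genes and for the median of 1992 genes. Colour gives the handling, shape the chemistry and black marks the mean and SD of 6 libraries; the median gene moves from 10.5% to 21.5%, while the ranges of 6 of the histone genes overlap between handlings.

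HIST1H1D was the one gene of the 7 whose groups did not overlap in converted share, as for 36.2% of the 3105 genes with 30 or more exonic reads in every labelled library. Its share was 17.9% to 34.1% under DO (median 26.8%) and 37.9% to 50.0% under IH (median 43.5%), and 6 of 6 IH libraries lay above every DO library. Its IH libraries held only 40 to 87 reads, and in the one with 40, iodoacetamide replicate 1, 20 were converted (95% Wilson interval 35.2% to 64.8%). With the read minimum lowered to 30, chosen after its counts were seen, its log2 odds ratio was 1.09 (SE 0.30, 95% interval 0.49 to 1.69, edgeR adjusted p = 0.00120), where 76.9% of 3105 genes were called higher.

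The position of each gene among all genes shifted accordingly. Under DO, 67.0% (HIST1H2BK) to 91.1% (HIST1H2BD) of the 1992 genes had a lower mean share than the member. Under IH the corresponding percent was 26.6% to 82.6%, and it was 45.7% for HIST1H1C and 41.2% for HIST1H1E. On the scale of the log2 odds minus that of the median gene of the same library, a measure added after the data were seen, the difference of IH from DO was -1.12 for HIST1H1E, -1.11 for HIST1H4C, -1.03 for HIST1H2AC, -1.01 for HIST1H2BK, -0.88 for HIST1H1C and -0.76 for HIST1H2BD. For each of the 6, all 6 IH libraries lay below all 6 DO libraries, as for 10.5% of the 1992 genes. The two-sided exact permutation within chemistry gave each of the 6 p = 0.00926 without adjustment, the smallest this design allows, and 27.6% of the 1992 genes were lower and 13.1% higher at an unadjusted p under 0.05. Between 3.51% and 13.3% of the genes had a lower difference than a given member. The difference for HIST1H1D was -0.13 (p = 0.593 in the same exact permutation test).

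By chemistry, the log2 odds ratio for HIST1H1C was 0.38 (SE 0.26) for NaIO4 and TFEA, 0.24 (SE 0.26) for iodoacetamide and 0.38 (SE 0.26) for OsO4 and NH3. The median gene had 1.06, 1.06 and 1.14 in that order. HIST1H4C was the one gene whose value changed sign, from -0.25 (SE 0.35) with NaIO4 and TFEA to 0.44 (SE 0.34) with iodoacetamide. None of these within-chemistry values was tested alone.

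**Figure D3:**
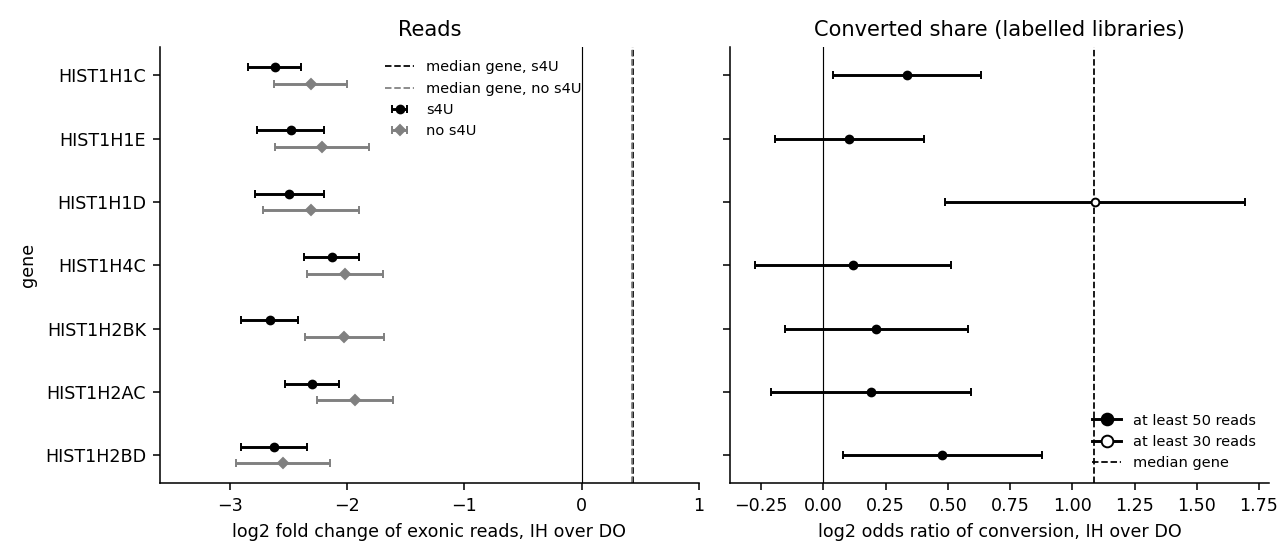
Change between handlings per gene with 95% intervals from edgeR: on the left the log2 fold change of exonic reads in labelled and unlabelled libraries, on the right the log2 odds ratio of conversion in labelled libraries. Dashed lines mark the median gene (0.44 and 0.43 on the left, 1.09 on the right); reads of all 7 genes lie far left of it, and HIST1H1D, tested at a lower read minimum, is the one gene near it on the right.

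The chemistries were compared with each other within IH. None of the 6 genes and none of all 1992 genes passed in any of the 3 pairs (edgeR). At an unadjusted p under 0.05 there were 0 of 6 members in each pair, and 75 genes for OsO4 and NH3 over NaIO4 and TFEA, 80 for OsO4 and NH3 over iodoacetamide and 41 for NaIO4 and TFEA over iodoacetamide. For OsO4 and NH3 over NaIO4 and TFEA, and over iodoacetamide, the estimate was above 0 for 6 of 6, where the median gene had 0.33 and 0.25. For NaIO4 and TFEA over iodoacetamide it was above 0 for 2 of 6, where the median gene had -0.07. HIST1H1C had converted shares of 22.5% and 22.2% in the OsO4 and NH3 libraries under IH, 18.5% and 20.2% with NaIO4 and TFEA, and 19.3% and 18.7% with iodoacetamide.

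The converted share depends on how many T positions a read holds, and the genes differed in this. Reads of HIST1H1E held 13.4 to 15.6 T positions on average in the labelled DO libraries, the fewest, and those of HIST1H4C held 32.5 to 35.5, the most. HIST1H1C had 18.7 to 21.0 and HIST1H2AC 25.5 to 29.6. The mean under DO and IH was 14.3 ± 0.809 and 13.7 ± 0.849 for HIST1H1E, and 34.2 ± 1.08 and 33.8 ± 1.35 for HIST1H4C (SD, n = 6).

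A binomial mixture of new and old reads, fitted to the T-to-C numbers given the T positions, took account of this. Its rate of mismatches per T in new reads was 3.98% to 7.22% over the labelled DO libraries and 5.29% to 9.89% over the IH libraries. The estimate was not made for other genes singly, so the p-values below have no background and are not adjusted. Over all exonic gene reads it rose from 13.5% to 27.4% (exact permutation within chemistry, p = 0.00926).

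HIST1H1C had an estimated new share of 24.1% to 26.1% under DO (median 24.4%) and 24.5% to 29.9% under IH (median 25.5%), and the mean differed by 1.58 points (exact permutation, p = 0.120). HIST1H1E had 29.99% to 37.3% and 29.9% to 33.0%, a difference of -3.11 points (exact permutation, p = 0.0741). HIST1H4C had means of 22.5% ± 4.63 and 21.5% ± 4.72 (SD, n = 6, exact permutation p = 0.713). The libraries of both handlings overlapped for these 3 genes.

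HIST1H2BK had 15.9% ± 4.90 and 15.7% ± 1.57, HIST1H2AC 27.9% ± 3.48 and 26.8% ± 2.95, and HIST1H2BD 36.5% ± 6.42 and 40.3% ± 5.62 (SD, n = 6, exact permutation p = 0.944, 0.565 and 0.324). HIST1H1D had 40.7% ± 8.89 under DO and 60.0% ± 8.20 under IH, a difference of 19.3 points (exact permutation, p = 0.00926), and 5 of 6 IH libraries lay above every DO library. In unlabelled libraries the estimate was at most 2.65%, in HIST1H2BD. The estimates also depended on the aligner. With STAR the means under DO and IH were 28.2% and 26.1% for HIST1H1E and 17.7% and 16.9% for HIST1H4C. They were 22.5% and 22.5% for HIST1H2AC, and 28.1% and 32.5% for HIST1H2BD. HIST1H2BK had 18.7% and 18.7%, HIST1H1D 39.2% and 60.3%, and HIST1H1C 24.1% and 26.5% with STAR. For HIST1H1C the difference was 2.46 points with STAR (exact permutation p = 0.00926). With 1 library left out it ranged from 0.757 points without NaIO4 and TFEA IH replicate 2 (exact permutation p = 0.333) to 2.40 points without replicate 1 of that group (exact permutation p = 0.0278). For HIST1H1E it ranged from -4.33 points without iodoacetamide DO replicate 2 (exact permutation p = 0.00926) to -1.89 points without iodoacetamide DO replicate 1 (exact permutation p = 0.222), and for HIST1H2BD from 1.62 to 5.99 points.

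**Figure D4:**
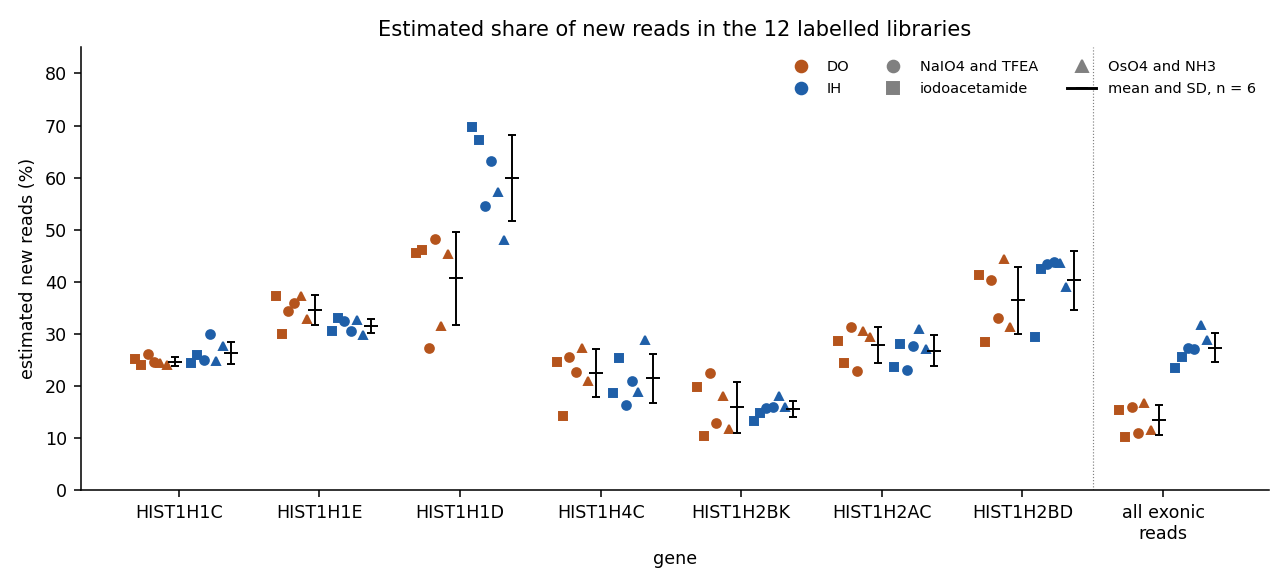
Estimated percent of new reads in each of the 12 labelled libraries, for 7 histone genes and for all exonic gene reads. Colour gives the handling, shape the chemistry and black marks the mean and SD of 6 libraries; all exonic reads move from 13.5% to 27.4%, and among the genes HIST1H1D has the largest gap, from 40.7% to 60.0%.

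The same libraries aligned with STAR were compared with HISAT-3N. Reads were higher with STAR for 7 of 7 genes in 12 of 12 labelled libraries, as for 87.2% of all 12426 genes tested, while 2.33% were lower (two-sided exact sign flips over libraries, adjusted p = 0.000969 for each of the 7 genes), and the median gene's log2 ratio was 0.27. HIST1H2BD gained most, with a STAR over HISAT-3N ratio of 1.32 to 2.34 per library and a log2 ratio of 0.75 ± 0.25 (SD, n = 12). HIST1H2BK followed with 1.496 to 1.60 and 0.63 ± 0.03, and only 2.67% of genes had a higher log2 ratio. HIST1H1E had 0.41, HIST1H4C 0.37, HIST1H2AC 0.31, HIST1H1D 0.14 and HIST1H1C 0.13. Scaled to the exonic gene reads of each alignment, HIST1H1C and HIST1H1D were lower with STAR (-0.19 and -0.19, adjusted p = 0.00264 each, exact sign flips), HIST1H2AC (-0.01) did not pass, and the other 4 stayed higher. On this scale 32.2% of all genes were lower and 13.7% higher, and the median gene had -0.05.

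The converted share moved in both directions between the aligners. With STAR it differed by -5.58 ± 2.18 points for HIST1H2BD (SD, n = 12), by -3.96 ± 1.405 for HIST1H4C, by -3.56 ± 0.736 for HIST1H1E and by -3.55 ± 0.859 for HIST1H2AC. Each was lower in 12 of 12 libraries (exact sign flips, adjusted p = 0.00181), as were 54.9% of 1978 genes by the same test. HIST1H2BK was higher in 12 of 12 by 2.19 ± 0.948 points (exact sign flips, adjusted p = 0.00181), as were 1.82% of genes. HIST1H1C differed by -0.00862 ± 0.284 points (exact sign flips, adjusted p = 0.955).

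Counted over the 12 libraries, the gain with STAR for HIST1H1E was 31.5% in all exonic reads but 7.99% in converted reads. For HIST1H2BK it was 54.5% and 78.4%, and for HIST1H1C 11.05% and 10.8%. The fall of reads under IH was of the same size in STAR, with log2 fold changes from -2.87 to -2.10 over the 7 genes, and HIST1H1C (0.35) and HIST1H2BD (0.47) were again the 2 genes called higher in converted share.

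**Figure D5:**
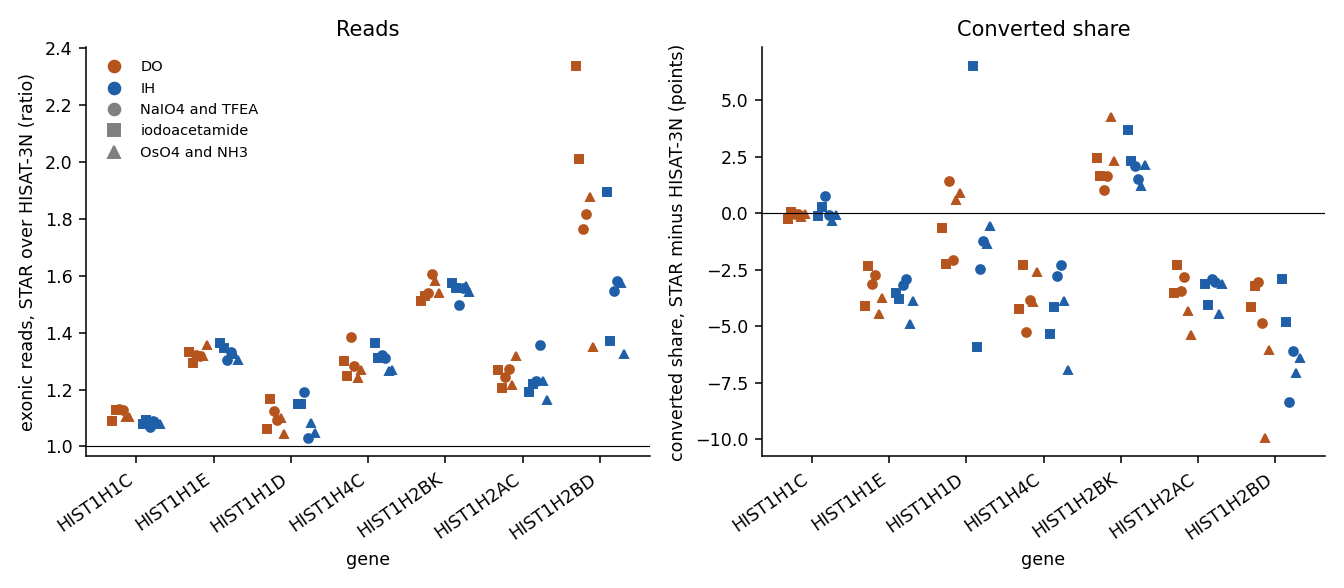
STAR against HISAT-3N in each of the 12 labelled libraries: on the left the ratio of exonic reads, on the right the difference in converted share in percentage points. Colour gives the handling and shape the chemistry; every ratio is above 1, and HIST1H2BK is the gene whose converted share is higher with STAR in 12 of 12 libraries.

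Some reads of these genes were marked intronic. What the mark stands for in genes with a single short transcript was not tested, so it is not read here as unspliced RNA. Pooled over labelled DO libraries this was 19.7% of the reads of HIST1H2BD and 0.516% of those of HIST1H2AC, with the other 5 genes between 2.08% and 9.82%. In the labelled IH libraries it was 16.8% for HIST1H2BD and 1.71% for HIST1H2AC. The mean percent per library did not pass between handlings for any of the 7 genes (exact permutation within chemistry, p from 0.0556 for HIST1H2AC to 0.972 for HIST1H1D). By the same test, 77.3% of the 3105 genes passed without adjustment.

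Degradation rate constants from the program bakR, in the authors' deposited table, were given for 6 of the 8 genes in each chemistry, all but HIST1H1B and HIST1H1D. They are first-order constants in an unstated time unit, and a higher value is meant as faster loss of the RNA. DO and IH are handlings, and whether a constant that differs between them reflects RNA loss in the cells was not tested. For NaIO4 and TFEA the authors' deposited table gave rate constants as follows. In the authors' deposited table HIST1H1C had 0.259 under DO and 0.229 under IH, HIST1H1E 0.171 and 0.155, and HIST1H4C 0.104 and 0.102. In the same deposited table HIST1H2AC had 0.125 and 0.130, HIST1H2BK 0.115 and 0.122, and HIST1H2BD 0.160 and 0.219. The median of the 6 was 0.142 under DO and 0.143 under IH in the authors' deposited table for this chemistry, where the median of all transcripts went from 0.0430 to 0.102.

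With iodoacetamide the medians of the 6 in the authors' deposited table were 0.139 and 0.128, against 0.0354 and 0.0833 over all transcripts. With OsO4 and NH3 they were 0.137 and 0.131 in the authors' deposited table, against 0.0411 and 0.0998. HIST1H1C with iodoacetamide was the only member called in the authors' deposited table, with 0.248 under DO, 0.170 under IH, a log2 change of -0.54 and an adjusted p of 0.00730. HIST1H2BK with iodoacetamide had a larger change of -0.67 there, with a deposited adjusted p of 0.0502, just above the threshold of 0.05. HIST1H2BD went the other way in the authors' deposited table, at 0.45 for NaIO4 and TFEA, 0.23 for iodoacetamide and 0.50 for OsO4 and NH3. At the same threshold the authors' deposited table called 48.9% of transcripts higher and 1.44% lower for iodoacetamide, 52.6% and 0.679% for NaIO4 and TFEA, and 48.1% and 0.442% for OsO4 and NH3. Under DO the 6 genes stood above 81.2% to 96.6% of all transcripts over the chemistries, and under IH above 43.2% to 87.2%, in the authors' deposited table.

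Genes that serve the histone messages could be followed only in that table, which carries symbols. Of 12 genes of histone message transcription, 3′ end processing or decay, the authors' deposited table listed 3: CPSF3, SYMPK and UPF1. It called 2 higher under IH for NaIO4 and TFEA, 2 for iodoacetamide and 3 for OsO4 and NH3. Of all transcripts, 52.6%, 48.9% and 48.1% were called higher in that order. UPF1, a decay factor, was among those called for iodoacetamide and for OsO4 and NH3 in the authors' deposited table. For the first of these chemistries, NaIO4 and TFEA, the listed genes called were CPSF3, the endonuclease that cuts the message (log2 change 1.86), and SYMPK, a scaffold of the cleavage complex (1.80), both from the authors' deposited table. Of 8 replacement histones, made also outside S phase, the deposited table listed 7, 6 and 7 and called 4, 3 and 4 higher for NaIO4 and TFEA, iodoacetamide, and OsO4 and NH3, near those shares of all transcripts. For the first chemistry the authors' deposited table gave log2 changes of 2.35 for H3F3A, 2.21 for H2AFY, 1.57 for H3F3B and 1.47 for H2AFZ, all called. H1FX (0.60), H1F0 (0.30) and H2AFX (0.28) were not called there in the authors' deposited table.

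Of 8 histone chaperones the authors' deposited table listed 4, 2 and 4 in the same order of chemistries and called 3, 2 and 2 higher, beside the same shares of all transcripts. NASP, a chaperone of H1 and H3-H4, had a log2 change of 2.47 for the first chemistry in the authors' deposited table. None of these lists had a gene called lower in the authors' deposited table, where 0.442% to 1.44% of all transcripts were. Of the 8 cell type markers, the HEK293T genes VIM and NEFM were listed for each chemistry and KRT18 for 1 in the authors' deposited table. KRT8 and LIN28B, also HEK293T genes, were not listed in the authors' deposited table. Neither were the leukocyte, erythroid and hepatocyte markers PTPRC, HBB and ALB. That table gives rate constants, not levels, so the cell type was not checked on levels.

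Across the 18 libraries the 7 tested genes moved together: the 21 pairs had Pearson correlations of log2 CPM between 0.945 and 0.993. These are descriptions over libraries that share handling groups, depth and scaling. Of 3444 other genes whose mean was 100 exonic reads or more, the 2 most like the members' mean log2 CPM were ENSG00000100280 and ENSG00000161016, with r = 0.998 each over 18 libraries. Within the 9 DO libraries their r was 0.864 and 0.910, and within the 9 IH libraries 0.823 and 0.622.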

How the data were processed

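Total RNA of HEK293T cells was made into stranded total-RNA libraries, per the labels' protocols. The authors deposited read counts per library, aligner, setting, gene, intronic flag, T-to-C number and T number. Per the submitters' processing notes, GRCh38, cutadapt, HISAT2, STAR, HISAT, Picard, HTSeq and DESeq2 were used, with no versions or roles. Which steps differed between handlings, the settings codes and the treatment of reads that fit several genes are not given in the sources used here. The authors also deposited rate constants (a score with no stated time unit), and, per the labels, a log2 fold change with an adjusted p-value. The sign of that log2 value follows IH over DO.

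Setting D of both aligners was used, HISAT-3N being the main one. The members and gene lists were chosen with earlier results of these data known. Exonic counts of each gene were added up. The filterByExpr function kept 12449 of 24678 genes, TMM gave the scaling, and edgeR 4.0.16 (R 4.3.3) fitted the 12 groups of 18 libraries, averaging contrasts over chemistries. For the converted share, edgeR fitted both kinds of reads, converted or not, with library as a term, where all 12 labelled libraries held 50 or more exonic reads of the gene. Adjusted p-values are Benjamini-Hochberg over all genes tested, called under 0.05. Exact tests permuted handling within chemistry or flipped signs over libraries (4096) of the log2 ratio of reads plus 1, in SciPy 1.17.1. Alternatives were DESeq2 1.42.0, other size factors, filters, read minimums and definitions of conversion, STAR, all reads and each library left out. Scripts were tested on simulated data. In log2 CPM, libraries numbered alike deviated together only within DO (r from 0.205 to 0.247 for 3 pairs of groups, -0.0131 to 0.0298 for the other 12). The numbers were therefore not taken to pair them in the main fit, and fits with the number as a block were alternatives. Libraries of 1 number may still share an origin, under DO by these reads and under both handlings by the median gene's converted share. Same-group libraries differed by more than sampling noise. The 10 samples of 5 other chemistries were not analysed here. All 8 members are named throughout, and of the gene lists those called with the largest changes.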

Additional observations from a re-analysis of the deposited data

Results flagged for a closer look

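Over 56 sets of 6 labelled libraries (4 measures of 7 genes under each handling), 3 held a library far from the other 5, where chance flags about 1 set in 20. HIST1H2BK had 4388 CPM in iodoacetamide DO replicate 2, against 2459 to 3132 in the other labelled DO libraries. HIST1H1E had 11.6% of its reads marked intronic in the same library, against 2.38% to 4.49%. This library had 5813077 aligned reads and was the deepest of the labelled ones. HIST1H2BD had an estimated new share of 29.4% in iodoacetamide IH replicate 1, against 39.0% to 43.8% in the other labelled IH libraries, from 169 exonic reads.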

How the results depend on the processing

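The fall of reads under IH held for 7 of 7 genes, labelled and unlabelled, in every alternative run, DESeq2, RLE size factors, no filter, STAR, all reads and each library left out included. HIST1H1B, fitted only without the filter, was not called. With the 12 labelled libraries alone it was 7 of 7 without a replicate block and 7 of 7 with the replicate number as a block (5161 genes higher and 4422 lower of 11476, against 5135 and 4434), and the replicate block kept 2 of 6 calls of the converted share (1705 genes higher, 1 lower). The converted share gave 0 calls of 6 with at least 2 mismatches (HIST1H1C 0.40, adjusted p = 0.189, HIST1H2BD 0.64, adjusted p = 0.0861, edgeR), where 1602 of 1992 genes were called, and 1 of 5 with at least 200 reads per library, where 308 of 363 were, and 0 to 3 calls with 1 library left out. Calls of the label contrasts ranged from 0 to 3 under DO, 0 to 1 under IH and 0 to 1 for their difference when 1 library was left out. At an unadjusted p under 0.05 the estimated new share gave 1 to 2 calls of 7 with 1 library left out and 2 of 7 with STAR. Signs turned with STAR for the label difference under IH of HIST1H2BD (-0.15) and NaIO4 and TFEA over iodoacetamide for HIST1H1E (0.024), with at least 2 mismatches for the converted share of HIST1H2AC (-0.024) and NaIO4 and TFEA over iodoacetamide for HIST1H2BK (0.30) and HIST1H2AC (0.25), and, scaled to exonic gene reads, for the STAR ratios of HIST1H1C (-0.19), HIST1H1D (-0.19) and HIST1H2AC (-0.012). The ratios of HIST1H1C and HIST1H1D were called higher unscaled and lower scaled. Of 1158 single-gene values with 1 library left out, 30 turned sign, 15 lost and 9 gained a call. With 1 library left out the ranges that crossed 0 were, for the label contrast under DO, -0.039 to 0.36 (HIST1H1E) and -0.15 to 0.032 (HIST1H2AC), for the difference between label contrasts -0.35 to 0.051 (HIST1H1D) and -0.48 to 0.12 (HIST1H2BD), and for the converted share -0.017 to 0.24 (HIST1H4C). Between chemistries they were -0.000528 to 0.38 (HIST1H2BD, OsO4 and NH3 over NaIO4 and TFEA), -0.14 to 0.48 (HIST1H4C, OsO4 and NH3 over iodoacetamide), and, for NaIO4 and TFEA over iodoacetamide, -0.051 to 0.11 (HIST1H1C), -0.18 to 0.10 (HIST1H1E) and -0.12 to 0.042 (HIST1H2BK). In percentage points they were -0.0784 to 0.0203 for the share of HIST1H1C between aligners, and for the estimated new share -2.78 to 0.660 (HIST1H4C), -1.90 to 1.34 (HIST1H2BK) and -2.54 to 0.305 (HIST1H2AC). The cause was not tested. Over all genes, calls of the converted share ranged from 308 (at least 200 reads, fewer genes tested) to 2448 (all reads), of the label contrasts from 9 to 208 under DO, from 8 to 57 under IH and from 0 to 17 for their difference. HIST1H1B and HIST1H1D had the fewest exonic reads of the genes described.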

Other observations

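Of 23 other genes whose names start with HIST in the authors' deposited table of rate constants, a set taken after the table was seen, 20 were listed for NaIO4 and TFEA, 16 for iodoacetamide and 22 for OsO4 and NH3. Their median log2 change between handlings was 0.02, -0.00247 and -0.07 in that order in the authors' deposited table, against 1.18, 1.14 and 1.19 over all transcripts. With NaIO4 and TFEA, HIST1H2AG (-0.51), HIST1H3B (-0.60) and HIST2H2AA3 (-2.58) were called lower under IH and HIST2H2BF (0.67) higher in the authors' deposited table, where 0.679% of all transcripts were called lower and 52.6% higher. With iodoacetamide the authors' deposited table called HIST1H3B (-0.84) and HIST1H3H (-1.12) lower, as it did 1.44% of all transcripts, and with OsO4 and NH3 it called none of the 22, against 48.1% of all transcripts higher and 0.442% lower.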
